A study of Mus musculus with 16 samples.

Results

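Histones package DNA into nucleosomes, and the genes of the histone family were examined in sorted cells of the mouse olfactory mucosa. They were taken as every array probeset whose gene symbol names a linker histone H1, a core histone H2A, H2B, H3 or H4, or one of their replacement variants. The symbol rule matched 66 probesets, 1 of them for a pseudogene that was left out, so that 65 of 22206 gene probesets remained, each for a different gene. There were 8 H1 genes, 13 H2A, 15 H2B, 10 H3 and 12 H4 genes, and 7 genes of replacement variants (H2ax, H2az1, H2az2, H3f3a, H3f3b, Macroh2a1 and Macroh2a2). The histone cluster on chromosome 13 held 46 of them, the smaller cluster on chromosome 3 held 8, and 11 lay elsewhere.

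S100a5-tauGFP mice carry a green fluorescent protein reporter of S100a5, a gene whose expression in olfactory sensory neurons depends on neuronal activity. The 24 mice, of both sexes and aged 7 to 12 weeks, were housed singly in clean-air chambers for 40 h. After the first 26 h, filtered air alone (the vehicle) or an odorant was pulsed in for 10 s at intervals of 20 min until the end. Dissociated olfactory mucosa of 3 mice was pooled and sorted into GFP+ and GFP- cells, which gave 4 groups of 4 Clariom S arrays: vehicle GFP+, vehicle GFP-, odorant GFP+ and odorant GFP-. All 4 groups carried the reporter, all came from the same kind of chamber, and both fractions of a numbered pool came from the same 3 mice. The sample labels call the odorant bourgeonal and the series title refers to indole, so its identity was not settled. The GFP- fraction held whatever was not fluorescent, neurons and other cell types together.

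Most core histone genes and most linker histone genes are replication-dependent: their messages lack a poly(A) tail, end in a stem-loop, and accumulate in S phase to supply new chromatin. The replacement variants H2A.Z, H3.3 and macroH2A are made throughout the cell cycle from polyadenylated messages and serve cells that no longer divide. H2ax was grouped with them by its symbol, and that description is not meant to cover it. H2bc21, formerly Hist2h2be, lies in the chromosome 3 cluster and encodes the H2B variant known as H2BE, which has been described in mouse olfactory neurons as accumulating in neurons with little stimulation and as scarce in active ones. In the olfactory epithelium, basal cells divide and give rise to immature and then mature sensory neurons, which do not divide.

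The 250 bases before the transcription start, taken from RefSeq (GRCm38.p6) for the 59 of 65 members with an entry, were searched on both strands for 3 motifs known from histone promoters. No entry was given for H2ax, H2bc21, H2bc4, H3c1, H3c7 and H4c14. The octamer ATTTGCAT, characteristic of H2A and H2B promoters, stood in 12 of the 26 H2A and H2B promoters (46.2%), against 1.60% of 32851 promoters in the table. The letters CCAAT stood in 26 of these 26 promoters and in 33.9% of all promoters, and TATAAA in 14 of 26 and 12.4%. The octamer was found in 8 of the 18 H2A and H2B promoters whose genes were lower in GFP+ cells in at least 1 comparison below, and in 4 of the 8 whose genes were lower in neither. Divergent neighbours share some of these bases, and the octamer of H2ac8 also counts for H2bc8, which was lower in neither. These counts are therefore not of independent promoters, and the groups of 18 and 8 are not separate sets of sequence. A match is a description of the letters and not evidence of a bound site. Sequences are shown for H2ac8 and H2bc18, which were lower in GFP+ cells with vehicle and with odorant, and for H2ac20, the divergent neighbour of H2bc21, which was lower in neither. They run 5′ to 3′ on the gene's strand, end at the base before its start, and have octamer and CCAAT matches (either strand) in capitals. Those of H2ac8 (chr13:23571221-23571399, minus strand, 179 bases) and H2ac20 (chr3:96220881-96221071, minus strand, 191 bases) are shortened at the 5′ end, where the neighbouring genes H2bc8 and H2bc21 begin. That of H2bc18 (chr3:96269450-96269699, plus strand) has all 250 bases.
H2ac8: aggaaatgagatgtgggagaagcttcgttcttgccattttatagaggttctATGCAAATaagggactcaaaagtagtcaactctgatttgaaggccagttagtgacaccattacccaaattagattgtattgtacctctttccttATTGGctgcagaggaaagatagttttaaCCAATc
H2bc18: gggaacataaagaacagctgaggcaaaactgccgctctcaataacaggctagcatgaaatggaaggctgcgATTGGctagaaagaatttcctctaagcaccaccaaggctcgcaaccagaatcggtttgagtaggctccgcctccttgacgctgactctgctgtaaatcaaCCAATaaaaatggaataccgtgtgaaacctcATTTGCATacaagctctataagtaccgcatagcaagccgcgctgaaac
H2ac20: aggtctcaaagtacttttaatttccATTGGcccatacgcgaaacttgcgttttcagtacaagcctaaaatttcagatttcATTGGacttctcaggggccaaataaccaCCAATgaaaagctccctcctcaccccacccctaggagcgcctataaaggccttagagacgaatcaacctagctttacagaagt
The octamer is present once in the sequences of H2ac8 and H2bc18. For H2ac20 it lies in the 59 bases that overlap H2bc21 and are not shown, so none of the 3 genes lacked an octamer match within 250 bases.

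The deposited values were log2 signals. Array medians over all gene probesets ran from 6.29 to 6.38 on GFP+ arrays and from 6.64 to 6.76 on GFP- arrays, and the background level, the 95th percentile of 23 antigenomic control probesets, was 6.57 to 6.87. Replicate arrays of a group correlated at r = 0.987 to 0.994 over all gene probesets. Of the 65 members, 54 exceeded background on all 16 arrays, 6 on some, and 5 on none. These 5 were H1f6, H1f7, H1f8 and H2bc1, histones known from testis or oocytes, and H3c1. H3c14 and H3c15 had identical values on every array, so both names rest on 1 measurement, and the counts below include both. Other histone copies are also nearly identical in sequence, so a probeset may record more than 1 copy, and levels were not compared between genes. Arrays of the pools numbered 4 in both treatments had the Y-linked gene Eif2s3y at 2.63 to 3.41, against 9.95 to 11.17 in the others. The labels do not give the sex of a pool, and leaving out replicate 4 of each group is among the alternatives of the closing section.

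S100a5 itself was higher in GFP+ cells of both treatments. With vehicle its signal was 15.998, 16.06, 15.61 and 16.22 in the GFP+ arrays and 15.23, 15.09, 14.94 and 14.90 in the GFP- arrays, a difference of 0.93 ± 0.16 (log2, SE of the fit, n = 4 per group, adjusted p = 0.00236). With odorant the difference was 1.14 ± 0.20 (adjusted p = 0.00247), and in neither treatment did the fractions overlap. Omp, which marks mature sensory neurons, was at 18.53 to 18.75 on all 16 arrays, and did not separate the fractions.

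H2bc21 was strongly expressed and nearly level across the study. With vehicle its signal was 15.84, 15.63, 15.78 and 15.76 in the GFP+ arrays and 15.74, 15.84, 15.92 and 15.90 in the GFP- arrays. With odorant it was 15.70, 15.61, 15.82 and 15.77 in the GFP+ arrays and 15.68, 15.62, 15.75 and 15.78 in the GFP- arrays. All 16 values lay between 15.61 and 15.92 and the groups overlapped in every comparison. The highest gene probeset of each array reached 19.34 to 19.44, above H2bc21. Only 222 to 289 of the 22206 gene probesets of an array lay above it, however. Whether differences are compressed at this signal level was not tested.

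None of the comparisons called H2bc21. GFP+ minus GFP- was -0.10 with vehicle (95% confidence interval -0.37 to 0.18, adjusted p = 0.641) and 0.02 with odorant (-0.27 to 0.31, adjusted p = 0.956). Odorant minus vehicle was -0.03 in GFP+ cells (-0.30 to 0.25) and -0.14 in GFP- cells (-0.44 to 0.15). The interaction, by which the odorant difference of GFP+ cells exceeded that of GFP- cells, was 0.12 (-0.22 to 0.45). On the deposited scale, changes of more than 0.44 in either direction lay outside each of the first 4 intervals. The sign of the fraction differences depended on the scale. With the median of each array subtracted, the vehicle difference was 0.27 (-0.02 to 0.55, adjusted p = 0.104). The odorant difference was then 0.33 (0.02 to 0.64, adjusted p = 0.0725), an interval of positive values only, although it was not called. That scaling moved the median difference of all 22206 probesets from 0.08 to 0.45 with vehicle and from 0.10 to 0.42 with odorant. The medians subtracted from the GFP+ arrays lay below their background level. After quantile normalization the differences of H2bc21 were -0.12 with vehicle and -0.05 with odorant.

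**Figure D1:**
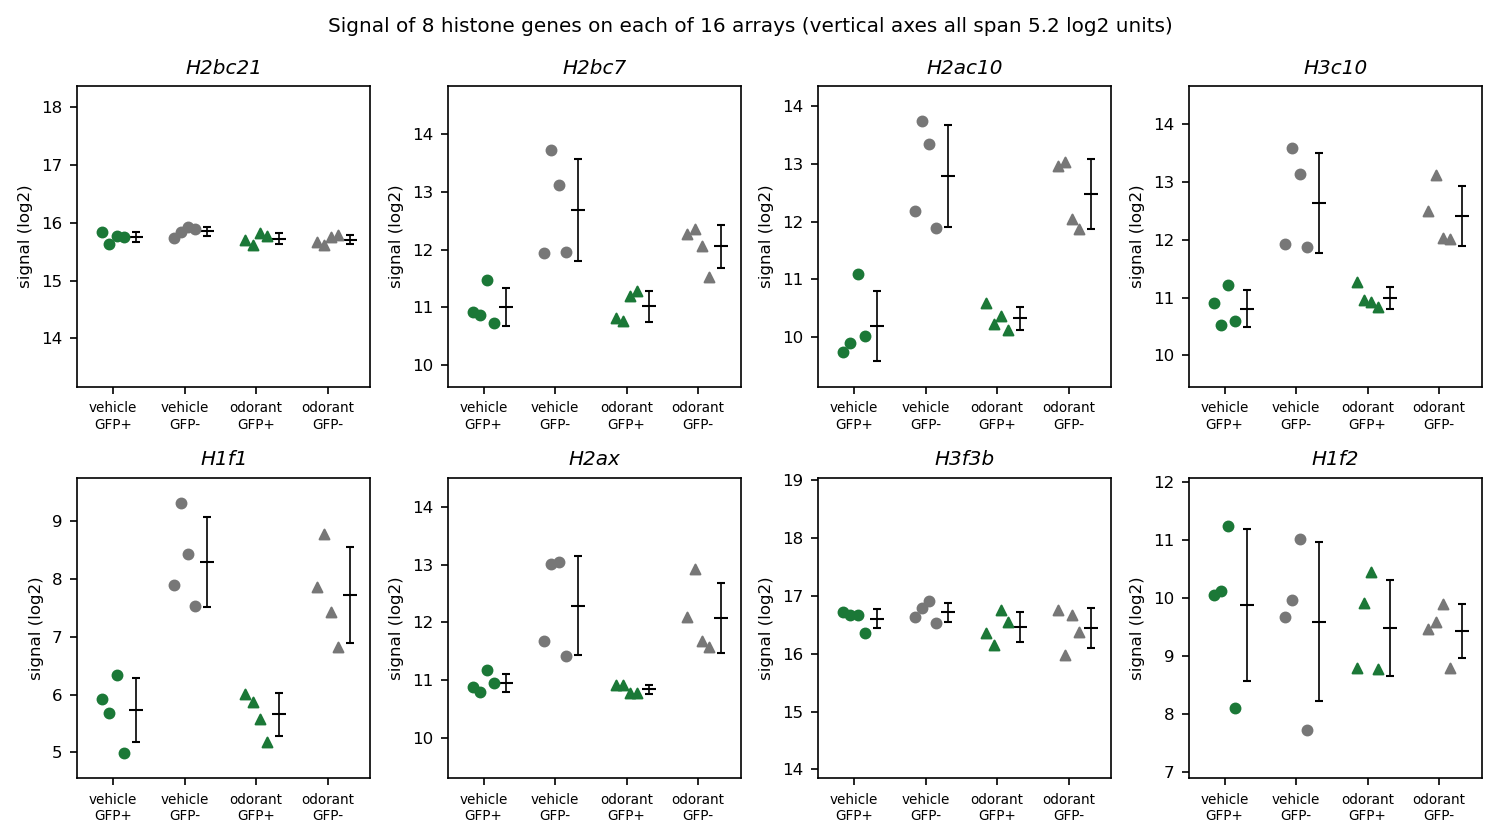
Signal (log2, vertical axis, 5.2 units in every panel) of 8 histone genes on each array of the 4 groups (horizontal axis). Circles are vehicle and triangles odorant arrays, green is GFP+ and grey GFP-, and the black bar is the mean ± SD of 4 arrays. H2bc21 is nearly level, and H3f3b varies from 15.98 to 16.91 with overlapping groups. H2bc7, H2ac10, H3c10, H1f1 and H2ax are higher in GFP- cells, and H1f2 varies from 7.72 to 11.25 within and between groups.

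Many of the replication-dependent histone genes were lower in GFP+ than in GFP- cells. With vehicle, 33 of the 65 members were lower and 0 were higher at an adjusted p under 0.05, against 9.97% of all probesets lower and 7.76% higher, and at an unadjusted p under 0.05 the members counted 44 lower and 0 higher, against 13.9% and 16.7% of all probesets. With odorant 28 were lower and 0 higher, against 7.84% and 3.57% of all probesets, and 35 and 2 passed an unadjusted p of 0.05, against 11.3% and 11% of all probesets. The median difference of the members was -0.98 with vehicle, where it was 0.08 over all probesets, and -0.53 with odorant, where it was 0.10. With array medians subtracted, which raised the medians over all probesets to 0.45 and 0.42, those of the members were -0.62 and -0.21. Every GFP+ array lay below every GFP- array for 26 members with vehicle and 29 with odorant, as it did for 11% and 9.07% of all probesets. In mixed populations such as these, fewer cells expressing a gene and less RNA per cell cannot be told apart.

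Both treatments called largely the same members. These fraction comparisons share no array, and 26 members were lower in both, which is 78.8% of the vehicle list and 92.9% of the odorant list. Over all probesets, 1531 were lower in both, or 69.2% and 87.9% of the lists. H2ac1, H2bc22, H4c1, H4c6, H4c11, H4c12 and H3f3a were lower with vehicle alone and H2bc3 and H2bc14 with odorant alone, and 30 members were lower in neither. Called in one treatment is not different between treatments: the interaction called none of the 65.

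**Figure D2:**
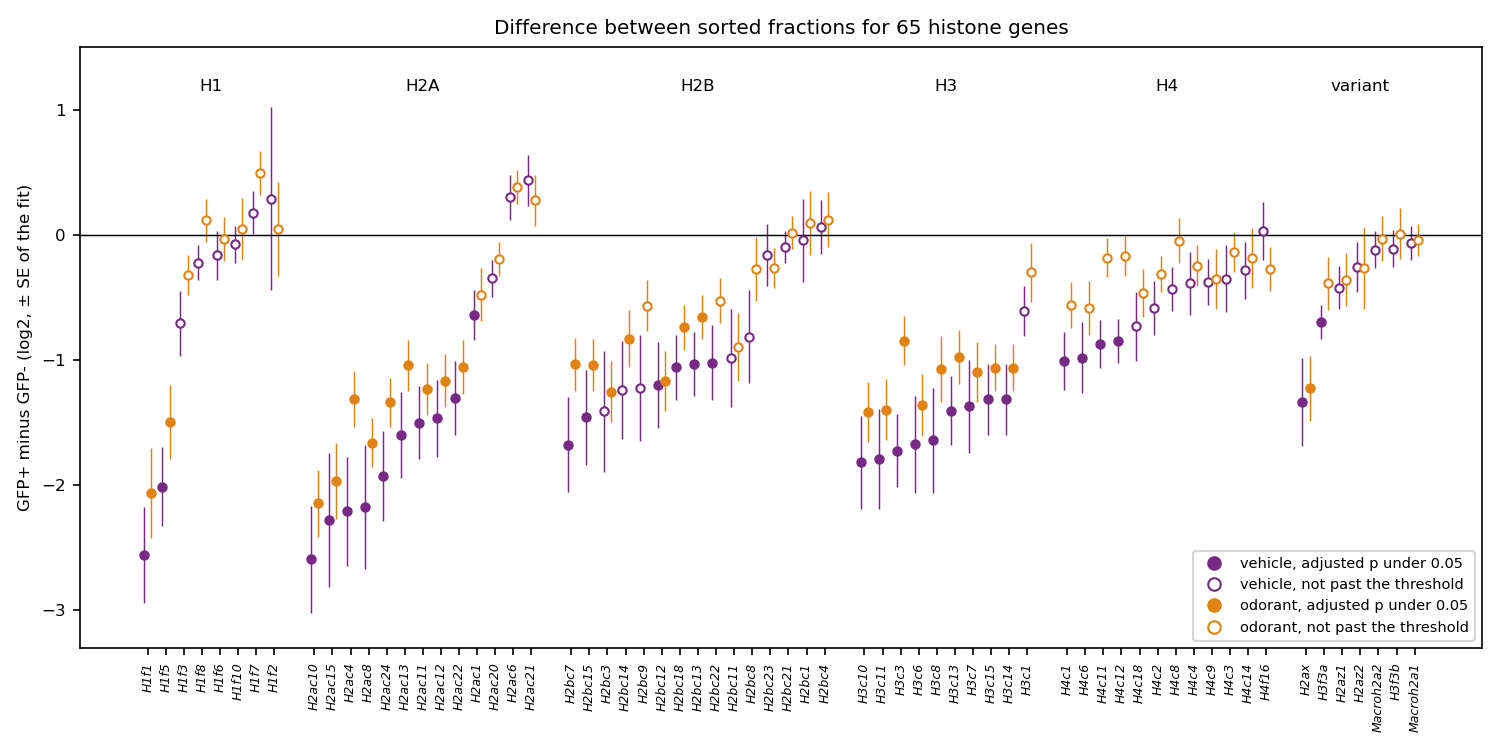
GFP+ minus GFP- difference (log2, vertical axis, ± SE of the fit) of each of the 65 histone genes (horizontal axis), ordered within class by the vehicle difference. Purple is vehicle and orange odorant, and filled points passed an adjusted p of 0.05. The point of H2ac10 lies at -2.59 with vehicle, most H2A and H3 genes lie below 0 in both treatments, and the H4 genes span -1.01 to 0.03 with vehicle.

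The H2A genes, which encode the core partner of H2B, had 10 of 13 members lower with vehicle and 9 with odorant, with class medians of -1.50 and -1.17. H2ac10 had the lowest difference among the members above background in both fractions. With vehicle its signal was 9.75, 9.91, 11.10 and 10.02 in the GFP+ arrays and 12.18, 13.73, 13.34 and 11.90 in the GFP- arrays, a difference of -2.59 ± 0.43 or 6.03-fold lower (adjusted p = 0.00167). With odorant it was 10.59, 10.24, 10.36 and 10.13 in the GFP+ arrays and 12.96, 13.02, 12.04 and 11.87 in the GFP- arrays, a difference of -2.14 ± 0.27 (adjusted p = 0.00023). The fractions did not overlap in either treatment, and vehicle GFP- replicates 2 and 3 were the highest of all 16 arrays. H2ac8 behaved alike, with vehicle signals of 9.79, 9.63, 10.83 and 9.69 in the GFP+ arrays and 11.26, 13.34, 12.91 and 11.12 in the GFP- arrays (-2.18 ± 0.49, adjusted p = 0.0118). With odorant H2ac8 was at 9.88, 10.13, 10.000 and 9.74 in the GFP+ arrays and 11.76, 12.06, 11.23 and 11.35 in the GFP- arrays (-1.66 ± 0.20, adjusted p = 0.000166). Its fractions did not overlap, although vehicle GFP+ replicate 3 stood about 1 unit above the other 3 GFP+ arrays.

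H2ac4 was at 9.71, 9.79, 10.90 and 9.87 in the GFP+ arrays and 11.53, 13.13, 13.07 and 11.38 in the GFP- arrays with vehicle (-2.21 ± 0.44, adjusted p = 0.00526). With odorant H2ac4 was at 10.29, 10.31, 10.26 and 10.24 in the GFP+ arrays and 11.83, 12.11, 10.94 and 11.47 in the GFP- arrays (-1.31 ± 0.23, adjusted p = 0.00238). The 4 odorant GFP+ arrays of H2ac4 were within 0.07 of each other, and its fractions were apart in both treatments. H2ac15 with vehicle was at 10.99, 10.41, 12.33 and 10.71 in the GFP+ arrays and 12.66, 14.49, 14.13 and 12.27 in the GFP- arrays (-2.28 ± 0.54, adjusted p = 0.0142), and GFP+ replicate 3 exceeded GFP- replicate 4. With odorant H2ac15 was at 11.20, 11.25, 11.22 and 10.98 in the GFP+ arrays and 13.52, 13.94, 12.65 and 12.40 in the GFP- arrays (-1.97 ± 0.30, adjusted p = 0.001), with no overlap.

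H2ac24 with vehicle was at 12.71, 12.78, 13.81 and 12.76 in the GFP+ arrays and 14.43, 15.63, 15.48 and 14.22 in the GFP- arrays (-1.93 ± 0.36, adjusted p = 0.0038). With odorant H2ac24 was at 13.07, 13.03, 13.13 and 13.30 in the GFP+ arrays and 14.72, 14.90, 14.16 and 14.12 in the GFP- arrays (-1.34 ± 0.20, adjusted p = 0.000782). Its GFP+ arrays were below its GFP- arrays throughout. H2ac11 with vehicle was at 13.27, 13.08, 13.89 and 13.43 in the GFP+ arrays and 14.47, 15.40, 15.51 and 14.30 in the GFP- arrays (-1.50 ± 0.29, adjusted p = 0.00514). With odorant H2ac11 was at 13.05, 13.54, 13.38 and 13.20 in the GFP+ arrays and 14.70, 15.01, 14.12 and 14.28 in the GFP- arrays (-1.23 ± 0.21, adjusted p = 0.00222), and again the fractions did not overlap. H2ac13 with vehicle was at 13.67, 13.27, 14.39 and 13.60 in the GFP+ arrays and 14.92, 15.95, 15.91 and 14.53 in the GFP- arrays (-1.60 ± 0.34, adjusted p = 0.0089), without overlap. With odorant H2ac13 was at 13.50, 13.81, 13.84 and 13.78 in the GFP+ arrays and 14.86, 15.30, 14.41 and 14.53 in the GFP- arrays (-1.04 ± 0.20, adjusted p = 0.00521), and its fractions stayed apart.

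Of the other H2A genes, H2ac12 and H2ac22 were lower in both treatments, and H2ac1, the testis H2A, was lower with vehicle alone (-0.64, adjusted p = 0.0489). H2ac6, H2ac20 and H2ac21 were lower in neither. H2ac6 was 0.30 with vehicle and 0.38 with odorant, where every GFP+ array was above every GFP- array, as for 7.86% of all probesets, but the adjusted p was 0.111. H2ac20 was -0.35 and -0.19, and H2ac21 0.43 and 0.27. With array medians subtracted, H2ac6, H2ac21 and the background-level H1f7 were called higher in GFP+ cells in both treatments. That scaling called 10363 of 22206 probesets higher with vehicle and 7757 with odorant, so these calls do not single out the 3 genes. It called 28 members lower with vehicle and 24 with odorant.

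The H2B genes had 6 of 15 members lower with vehicle and 7 with odorant, with class medians of -1.03 and -0.66. H2bc7 with vehicle was at 10.93, 10.88, 11.48 and 10.74 in the GFP+ arrays and 11.94, 13.72, 13.12 and 11.95 in the GFP- arrays (-1.68 ± 0.38, adjusted p = 0.011). With odorant H2bc7 differed by -1.03 ± 0.21 (adjusted p = 0.00712), and in both treatments the fractions were apart. H2bc12, H2bc13, H2bc15 and H2bc18 were also lower in both, by 0.66 to 1.46 log2 units. The members lower in neither were H2bc21, H2bc4, H2bc8, H2bc9, H2bc11, H2bc23 and the testis gene H2bc1. H2bc4, whose transcripts are also known in polyadenylated form from cells that have stopped dividing, was at 14.53 to 15.37 over the 16 arrays. Its differences were 0.06 with vehicle (-0.42 to 0.54) and 0.12 with odorant (-0.37 to 0.61).

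The H3 genes, which encode the replication-dependent H3 proteins, were lower in 9 of 10 members in both treatments, with class medians of -1.52 and -1.07. The exception, H3c1, was at background on every array. H3c10 with vehicle was at 10.90, 10.53, 11.22 and 10.60 in the GFP+ arrays and 11.93, 13.59, 13.13 and 11.87 in the GFP- arrays (-1.82 ± 0.37, adjusted p = 0.00615). With odorant H3c10 was at 11.27, 10.96, 10.93 and 10.83 in the GFP+ arrays and 12.50, 13.11, 12.02 and 12.01 in the GFP- arrays (-1.42 ± 0.24, adjusted p = 0.00214). The fractions of H3c10 did not overlap, and vehicle GFP- replicates 2 and 3 and odorant GFP- replicate 2 were its 3 highest arrays. H3c11 with vehicle was at 10.92, 10.33, 11.35 and 10.59 in the GFP+ arrays and 11.85, 13.64, 13.03 and 11.83 in the GFP- arrays (-1.79 ± 0.40, adjusted p = 0.0105). With odorant H3c11 was at 11.41, 10.96, 10.99 and 10.52 in the GFP+ arrays and 12.48, 12.92, 11.999 and 12.06 in the GFP- arrays (-1.40 ± 0.24, adjusted p = 0.00253), and its highest arrays were those 3 as well.

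H3c3 with vehicle was at 8.47, 7.81, 8.90 and 8.18 in the GFP+ arrays and 9.87, 10.60, 10.37 and 9.42 in the GFP- arrays (-1.72 ± 0.29, adjusted p = 0.00198). With odorant H3c3 was at 8.85, 8.36, 8.97 and 9.01 in the GFP+ arrays and 9.52, 9.95, 9.31 and 9.79 in the GFP- arrays (-0.85 ± 0.20, adjusted p = 0.0154). No GFP+ array of H3c3 reached a GFP- array of the same treatment. H3c13, in the chromosome 3 cluster, was at 12.72, 12.55, 13.01 and 12.54 in the GFP+ arrays and 13.71, 14.69, 14.60 and 13.45 in the GFP- arrays with vehicle (-1.40 ± 0.28, adjusted p = 0.00526) and differed by -0.97 ± 0.22 with odorant (adjusted p = 0.0119). H3c14, with the same values as H3c15, was at 12.81, 12.83, 12.95 and 12.98 in the GFP+ arrays and 13.84, 14.49, 13.75 and 13.72 in the GFP- arrays with odorant (-1.06 ± 0.19, adjusted p = 0.00263) and differed by -1.32 ± 0.28 with vehicle (adjusted p = 0.00853). Neither gene had overlapping fractions. H3c7 differed by -1.37 and -1.10, H3c6 by -1.67 and -1.36, and H3c8 by -1.64 and -1.07, all called in both treatments.

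The H4 genes, all of which encode the most conserved core histone, had smaller differences. With vehicle 4 of 12 were lower (H4c1, H4c6, H4c11 and H4c12) and with odorant 0, where 3 had an unadjusted p under 0.05. Class medians were -0.51 and -0.26. H4c12 with vehicle was at 13.16, 13.26, 13.71 and 13.07 in the GFP+ arrays and 14.06, 14.35, 14.27 and 13.93 in the GFP- arrays (-0.85 ± 0.17, adjusted p = 0.00673). With odorant H4c12 was at 13.72, 13.26, 13.47 and 13.75 in the GFP+ arrays and 13.78, 13.81, 13.52 and 13.77 in the GFP- arrays (-0.17 ± 0.16, adjusted p = 0.577). H4c12 thus had separate fractions with vehicle and overlapping ones with odorant. H4c11 with vehicle was at 13.31, 13.28, 13.83 and 13.14 in the GFP+ arrays and 14.25, 14.58, 14.24 and 13.98 in the GFP- arrays (-0.87 ± 0.19, adjusted p = 0.00894), without overlap. With odorant H4c11 was at 13.77, 13.37, 13.44 and 13.85 in the GFP+ arrays and 13.83, 13.85, 13.66 and 13.82 in the GFP- arrays (-0.18 ± 0.16, adjusted p = 0.543), where the fractions overlapped.

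Among the linker histones, which bind where DNA enters and leaves the nucleosome, H1f1 and H1f5 were lower in both treatments and the other 6 in neither. H1f1 with vehicle was at 5.92, 5.69, 6.33 and 4.997 in the GFP+ arrays and 7.90, 9.31, 8.43 and 7.53 in the GFP- arrays, a difference of -2.56 ± 0.38 (adjusted p = 0.000881). With odorant it was at 6.01, 5.88, 5.58 and 5.17 in the GFP+ arrays and 7.86, 8.78, 7.42 and 6.82 in the GFP- arrays (-2.06 ± 0.36, adjusted p = 0.00259). H1f1 was above background on all 8 GFP- arrays and on 0 of the 8 GFP+ arrays, so it was at least 3.12-fold lower with vehicle and at least 1.94-fold lower with odorant. H1f5 with vehicle was at 3.85, 4.21, 4.33 and 4.22 in the GFP+ arrays and 5.87, 7.17, 6.21 and 5.43 in the GFP- arrays (-2.01 ± 0.31, adjusted p = 0.00121). With odorant H1f5 was at 4.11, 3.65, 3.79 and 4.48 in the GFP+ arrays and 5.55, 6.35, 5.17 and 4.95 in the GFP- arrays (-1.50 ± 0.30, adjusted p = 0.00591). Only 1 of these 16 values of H1f5, that of vehicle GFP- replicate 2, exceeded background, so no fold is given. H1f2, the one linker histone above background on all 16 arrays, differed by 0.29 with vehicle (-1.33 to 1.91) and 0.05 with odorant (-0.79 to 0.88).

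Of the 7 replacement variants, H2ax and H3f3a were lower with vehicle and H2ax with odorant. H2ax is the variant phosphorylated at DNA breaks. With vehicle H2ax was at 10.88, 10.80, 11.18 and 10.95 in the GFP+ arrays and 11.68, 13.02, 13.04 and 11.43 in the GFP- arrays (-1.34 ± 0.35, adjusted p = 0.0244). With odorant H2ax was at 10.91, 10.92, 10.77 and 10.78 in the GFP+ arrays and 12.09, 12.92, 11.69 and 11.58 in the GFP- arrays (-1.23 ± 0.26, adjusted p = 0.00896). Its GFP+ arrays spanned 10.77 to 11.18 and stayed below every GFP- array, of which vehicle GFP- replicates 2 and 3 and odorant GFP- replicate 2 were the highest. The vehicle call of H2ax was lost (adjusted p = 0.0528 to 0.0617) without vehicle GFP+ replicate 1, 2 or 4 or without vehicle GFP- replicate 2 or 3.

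H3f3a, which with H3f3b encodes H3.3, was lower with vehicle, at 13.33, 13.31, 12.99 and 13.42 in the GFP+ arrays and 13.95, 13.91, 13.99 and 13.999 in the GFP- arrays (-0.70 ± 0.14, adjusted p = 0.0052). With odorant H3f3a was at 13.24, 12.86, 13.38 and 13.65 in the GFP+ arrays and 14.06, 13.28, 13.71 and 13.63 in the GFP- arrays (-0.39 ± 0.21, adjusted p = 0.322), where the fractions overlapped. With array medians subtracted, its vehicle difference was -0.33 (adjusted p = 0.0597). H3f3b was at 15.98 to 16.91 over all arrays and differed by -0.11 with vehicle (-0.44 to 0.21) and 0.01 with odorant (-0.44 to 0.46). H2az1 and H2az2, which encode the H2A.Z variants found at promoters, differed by -0.42 and -0.26 with vehicle and by -0.36 and -0.27 with odorant. Macroh2a1 and Macroh2a2, whose proteins carry a large extra domain and mark repressed chromatin, differed by -0.07 and -0.12 with vehicle and by -0.04 and -0.03 with odorant. No adjusted p of these 4 genes was under 0.1.

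By genomic position, 27 of 46 members of the chromosome 13 cluster were lower with vehicle and 23 with odorant. Of the 11 members elsewhere 2 and 1 were lower, against 9.97% and 7.84% of all probesets. The 7 variants were all counted as elsewhere, so position and class were not separated. In the chromosome 3 cluster, 4 of 8 were lower in both treatments: H2bc18, H3c13 and the pair H3c14 and H3c15. The other 4 members of that cluster, H2bc21, H2ac20, H2ac21 and H4c14, were called in neither.

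Many genes of DNA replication and division were lower in GFP+ cells too. In a list of 21 S phase and cell cycle genes, 14 were lower in GFP+ cells with vehicle and 12 with odorant, 0 were higher, and the median differences were -0.90 and -0.76. Over all probesets, 9.97% were lower with vehicle and 7.84% with odorant. Mki67, a marker of dividing cells, was at 4.78, 5.55, 4.66 and 4.21 in the GFP+ arrays and 9.66, 11.74, 11.04 and 9.10 in the GFP- arrays with vehicle (-5.58 ± 0.52). Rrm2, a ribonucleotide reductase subunit that supplies DNA precursors, was at 5.39, 5.78, 5.63 and 5.31 in the GFP+ arrays and 8.04, 10.45, 9.85 and 8.01 in the GFP- arrays (-3.56 ± 0.50, adjusted p = 0.000567). Both were below background on every GFP+ array. The other lists of the pathway held few calls, at shares near those of all probesets given above. Of 16 genes for making and processing histone messages, 2 were lower in both treatments, the cell cycle factors E2f2 (-4.05 with vehicle) and Cdk2 (-3.51). In the same list 2 were higher with vehicle and 0 with odorant, namely Lsm11 (0.84) and Zfp473 (0.51), both of the U7 machinery that cuts histone messages. Of 20 histone chaperones and exchange factors, Asf1b, an H3 and H4 chaperone, was lower in both treatments (-2.92 and -1.75), and Ubn1, of the complex that deposits H3.3, was higher with vehicle (0.49).

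Markers of other cell types also differed between the fractions. The shares of all probesets to set beside them were 9.97% lower and 7.76% higher with vehicle, and 7.84% and 3.57% with odorant. All 11 neutrophil genes were lower in GFP+ cells in both treatments, with list means of 4.99 to 6.21 on GFP+ arrays and 11.79 to 13.98 on GFP- arrays. The 2 red blood cell probesets, 10 of 10 microvillar and tuft cell genes and 6 of 8 globose basal cell genes were lower in both treatments as well. So were 7 of 12 immature neuron genes with vehicle and 6 with odorant, 7 and 3 of 8 sustentacular genes, 4 and 3 of 7 Bowman gland genes, 3 and 4 of 10 macrophage genes, and 6 and 5 of 8 lymphocyte genes. Lymphocyte genes had 1 higher with vehicle, mature neuron genes had 2 and 1 of 12 higher and 0 lower, and the 6 horizontal basal cell genes, all at background, had 1 lower with vehicle. The part of each cell type in the histone differences was not tested.

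Within the GFP- arrays the histone genes varied with some of these lists. The mean of the 26 histone members lower in both treatments was 12.03, 13.31, 13.03 and 11.78 on vehicle GFP- arrays and 12.31, 12.69, 11.87 and 11.79 on odorant GFP- arrays. Vehicle GFP- replicates 2 and 3 were the highest, followed by odorant GFP- replicate 2. On the same arrays the S phase and cell cycle list was at 6.86, 7.95, 7.80 and 6.89 and at 7.17, 7.30, 7.005 and 6.67, with the same 3 arrays on top. The neutrophil list was at 12.52, 13.82, 13.98 and 11.79 and at 13.70, 12.57, 11.82 and 12.14, and the red blood cell list at 9.37, 11.61, 10.37 and 9.50 and at 9.23, 9.99, 8.70 and 8.38. Vehicle GFP- replicates 2 and 3 were the highest in both of these lists, while the globose basal cell list stayed between 6.37 and 6.71. That mean is near background, and only 3 to 5 of its 8 probesets exceeded background on a GFP- array. It therefore says little on how basal cells varied between pools. With those 2 arrays left out, an alternative chosen after the data had been seen, 16 of the 65 members were lower with vehicle, against 1769 of 22206 probesets. The median difference of the 65 was then -0.54, and 0.04 over all probesets. In that fit, too, H2bc21 was not called (-0.07, -0.44 to 0.30).

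**Figure D3:**
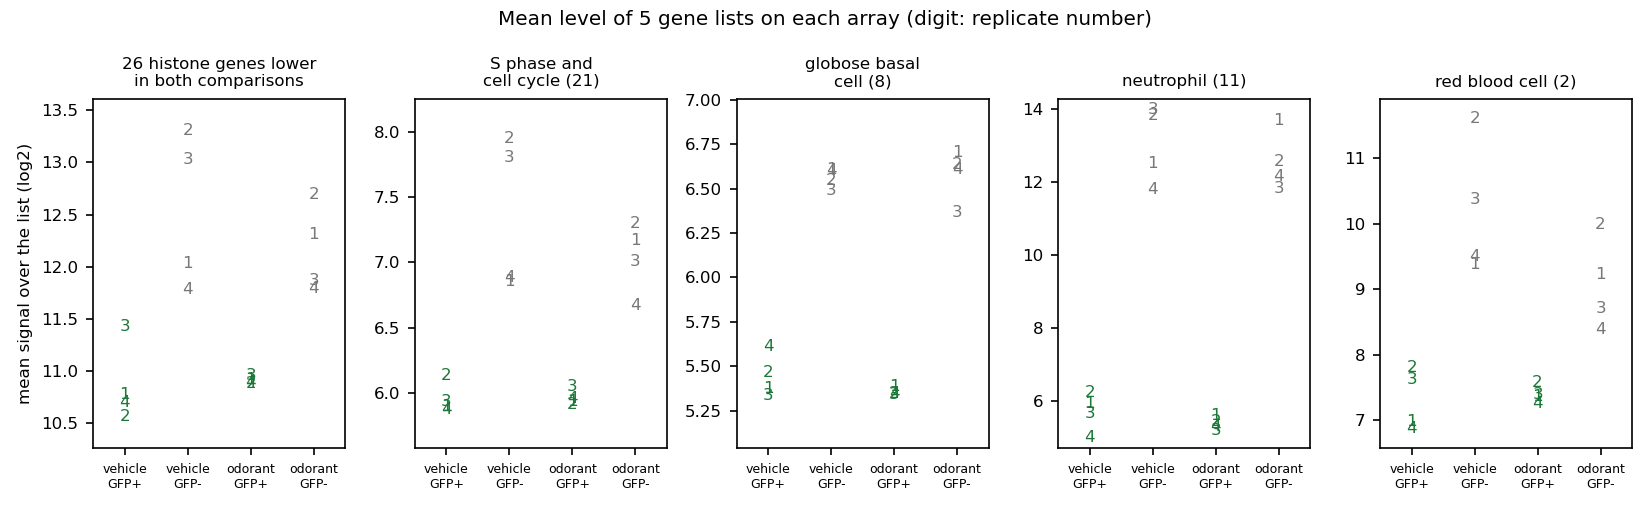
Mean signal (log2, vertical axis, own range in each panel) over 5 lists on each array of the 4 groups (horizontal axis), with each array drawn as its replicate number and the number of probesets in brackets. Vehicle GFP- replicates 2 and 3 stand highest among GFP- arrays for the 26 histone genes, the S phase list and the red blood cell list. The globose basal cell list, whose mean is near background, does not separate them. The 26 genes were chosen for their fraction difference, so the gap between fractions in that panel is a description.

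The odorant changed no histone gene past the threshold. In GFP+ cells 0 of 65 members were called, as were 0% of all probesets, and 0 members had an unadjusted p under 0.05, against 3.82% of all probesets. The median difference was 0.01, as over all probesets, and members ranged from -0.40 to 0.54. The median was 0.14 without vehicle GFP+ replicate 3, and -0.04 without vehicle GFP+ replicate 2 or 4. The smallest p belonged to H3c3, at 8.85, 8.36, 8.97 and 9.01 with odorant and 8.47, 7.81, 8.90 and 8.18 with vehicle (0.45 ± 0.23, adjusted p = 0.999). H3c7, at 8.31, 8.95, 8.50 and 7.98 and 7.54, 7.41, 8.86 and 7.78, differed by 0.54 ± 0.31. The groups overlapped for both genes. H4c3, at 13.90, 13.70, 13.73 and 13.55 with odorant and 13.24, 13.24, 14.14 and 12.92 with vehicle, and H4c8, at 10.93, 11.03, 10.63 and 11.22 and 10.52, 10.35, 11.13 and 10.58, differed by 0.33 and 0.31 and overlapped too. H1f7, at 5.37, 5.42, 5.69 and 4.96 with odorant and 4.80, 5.40, 4.84 and 4.94 with vehicle (0.37), was at background on all arrays.

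In GFP- cells 0 of 65 members were called, and 2 had an unadjusted p under 0.05, both lower with odorant, against 6.84% of all probesets (3.44% lower). These were H4c11 (-0.47 ± 0.16) and H4c12 (-0.43 ± 0.16), each with an adjusted p of 0.708 and with every odorant array, given above, below every vehicle array, as for 1.92% of all probesets. Of the 65 differences 59 were below 0, as were 51.2% of all probesets, and the median was -0.26 against -0.01. The 15 H2B differences were all below 0 (median -0.36). The median of the 65 was -0.12 without vehicle GFP- replicate 2, -0.13 without replicate 3, and 0.14 without both. It was -0.40 without vehicle GFP- replicate 4, -0.38 without vehicle GFP- replicate 1 and -0.39 without odorant GFP- replicate 2.

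**Figure D4:**
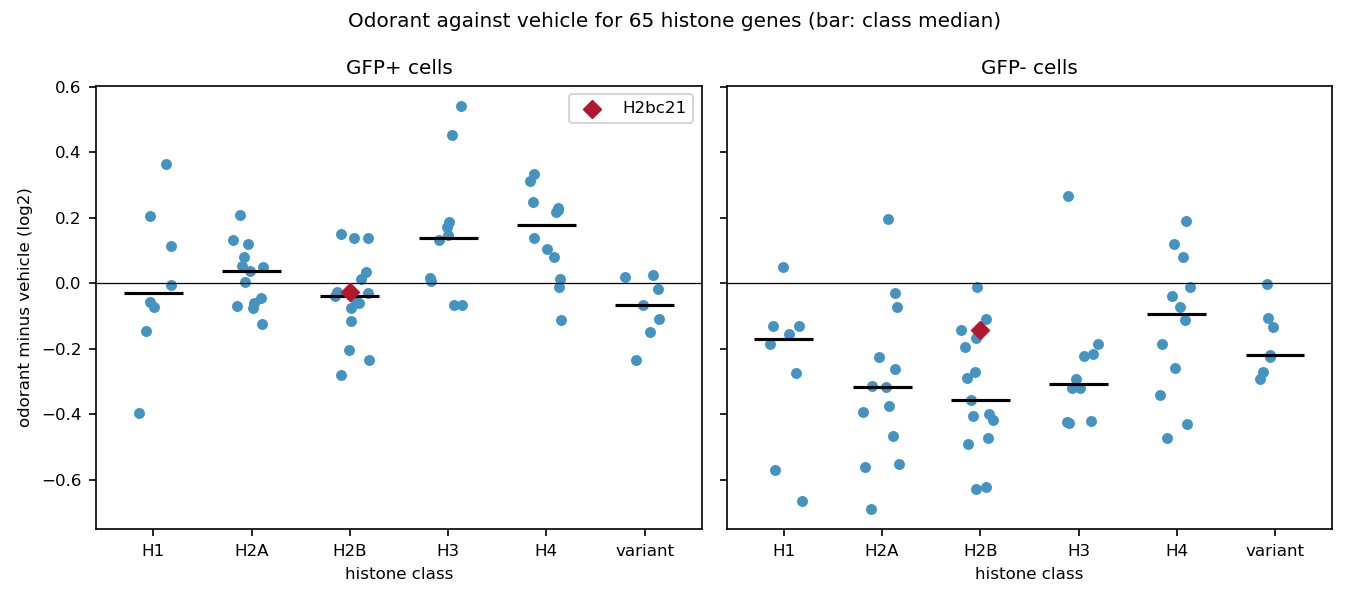
Odorant minus vehicle difference (log2, vertical axis) of the 65 histone genes by class (horizontal axis) in GFP+ cells (left) and GFP- cells (right). Each point is a gene, the bar is the class median and the red diamond is H2bc21, at -0.03 and -0.14. Points lie on both sides of 0 in GFP+ cells and mostly below it in GFP- cells, where none passed the threshold.

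The interaction called 0 of 65 members, and 3 had an unadjusted p under 0.05, all above 0, against 4.92% of all probesets (2.95% above 0). They were H4c12 (0.68 ± 0.23), H4c11 (0.69 ± 0.24) and H3c3 (0.88 ± 0.37), each with an adjusted p of 0.962. The median over members was 0.30, against 0.01 over all probesets, and 5 of the 65 were below 0, against 48.7% of all probesets. This count, like that in GFP- cells, is not of independent genes, since a probeset may record more than 1 copy. Leaving out 1 replicate number of a treatment at a time gave medians from 0.04 (without vehicle replicate 2) to 0.45 (without vehicle replicate 4). The median was 0.20 without odorant replicate 3 or 4 and 0.30 without vehicle replicate 3.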

How the data were processed

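The deposited table held log2 signals of 28846 probesets on 16 arrays, made by the authors with Affymetrix Expression Console, per the submitters' processing notes. The version, normalization and genome build were not given in the sources used here. No rescaling was applied, and 6640 control probesets were left out. The background of an array was the 95th percentile of its 23 antigenomic probesets. For a given gene, a group was at background if all of its signals lay at or below this value. A group whose mean signal did not pass the mean background of its arrays was treated likewise, as for H1f5 in vehicle GFP- cells. A fold against a group at background is a lower bound, and no fold was computed where both groups were at background.

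Two-sided tests used limma 3.58.1 (lmFit and eBayes) in R 4.3.3. P-values were adjusted by the Benjamini-Hochberg method across the 22206 gene probesets, and 0.05 was the threshold. The 4 pairwise comparisons used the 8 arrays of their groups and the interaction all 16. The number of arrays limits the precision. Pools are separate mice, so the spread is between pools. In simulated data with 200 shifted genes, the pairwise comparisons called 57% to 61% of those shifted by 1 log2 unit and the interaction 33%. At a shift of 2 they called 92% to 98% and 91%. The shifted genes were drawn at random from all probesets, with normal noise and each spread averaged over the 4 groups. The rates are therefore not those of the histone members. H2bc3, with an SD of 1.18 on vehicle GFP- arrays, differed by -1.41 between fractions with vehicle and was not called.

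Each GFP+ array shares its pool with the GFP- array of equal treatment and number, since 24 mice in pools of 3 make 8 pools. Their deviations from the group means correlated across genes at r = 0.11 to 0.16 with vehicle and 0.01 to 0.36 with odorant. A fit with the pool as a block was an alternative. Other alternatives were quantile normalization, subtraction of array medians, leaving out dim probesets, an intensity trend and leaving out each replicate.

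The members and gene lists were chosen with earlier results of these data known. Array values are given for H2bc21, for each variant or linker histone outside the clusters that passed, and for up to 10 members with the smallest p past the threshold in each comparison (5 where none passed). H2bc7 was added after its values were seen. H1f8, the fifth member of the interaction, was at background on all arrays and is given by its range. Figures used matplotlib 3.10.9 and Python 3.11.15.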

Additional observations from a re-analysis of the deposited data

Results flagged for a closer look

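In 96 groups of 4 arrays, those of the 24 members given array by array, 6 held an array that stood apart from the other 3 by more than the 95% critical value of Dixon's test. Chance alone gives about 1 in 20. Vehicle GFP+ replicate 3 was above the other vehicle GFP+ arrays for 3 H2A genes. It was at 13.81 for H2ac24, where the others were at 12.71, 12.78 and 12.76. It was at 10.90 for H2ac4, against 9.71, 9.79 and 9.87, and at 10.83 for H2ac8, against 9.79, 9.63 and 9.69. Odorant GFP- replicate 3 was below the other odorant GFP- arrays for the H4 genes H4c11, at 13.66 against 13.83, 13.85 and 13.82, and H4c12, at 13.52 against 13.78, 13.81 and 13.77. Odorant GFP- replicate 2 was above the others for H3c14, at 14.49 against 13.84, 13.75 and 13.72.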

How the results depend on the processing

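The number of members lower in GFP+ cells with vehicle (33) was 28 to 35 under the other scalings, the dim filter, the intensity trend and the replicate block, and that with odorant (28) was 24 to 30. Over the probesets kept, the same alternatives called 1516 to 2272 lower with vehicle and 1218 to 1817 with odorant. The fewest came with the dim filter, which kept 11606 of 22206 probesets. The replicate block gave 35 and 27 members. It changed no call of H2bc21, nor of the other members selected by the rule above, each in the comparison that selected it. Leaving out 1 array at a time gave 23 to 37 with vehicle and 25 to 30 with odorant. Over all probesets it gave 1871 to 2128 lower with vehicle, against 2213 with all arrays. With odorant it gave 1552 to 1712, against 1742. Leaving out vehicle GFP- replicates 2 and 3 together, chosen after the data had been seen, gave 16 members and 1769 of all probesets. Members called higher were 3 in each treatment with array medians subtracted, 1 with odorant (H1f7) without odorant GFP+ replicate 4, and 0 otherwise. Subtracting array medians raised the calls over all probesets from 1723 higher and 2213 lower to 10363 and 1687 with vehicle, and from 793 and 1742 to 7757 and 1520 with odorant. The differences of H2bc21 that were near-zero on the deposited scale changed sign without being called. GFP+ minus GFP- was 0.27 with vehicle after median subtraction and -0.0489 with odorant after quantile normalization, and it ranged from -0.0145 to 0.0575 with odorant without 1 array. Odorant minus vehicle in GFP+ cells was 0.00022 after quantile normalization and ranged from -0.0672 to 0.0139 without 1 array. H2ac13 turned from -0.55 to 0.0476 in odorant against vehicle GFP- cells without vehicle GFP- replicates 2 and 3, where H2ax was at -0.60 (adjusted p = 0.0662) between fractions. The cause of these changes was not tested, beyond the fewer arrays of the fits that leave some out. No odorant or interaction call on a member appeared under any alternative run.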

Other observations

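H1f2, the linker histone H1.2 gene, whose transcripts are also known in polyadenylated form, had a wide spread over pools in both fractions. Its vehicle signals were 10.05, 10.13, 11.25 and 8.10 in GFP+ cells and 9.67, 9.96, 11.02 and 7.72 in GFP- cells of pools 1 to 4. With odorant they were 8.80, 9.92, 10.44 and 8.77 in GFP+ cells and 9.47, 9.59, 9.90 and 8.80 in GFP- cells. Both fractions were highest in pool 3 of each treatment and lowest in pool 4 of each treatment, the pools low in Eif2s3y. Over the 16 arrays H1f2 spanned 3.52 log2 units, while H2bc21 spanned 0.31. Across the 8 pools its GFP+ and GFP- signals correlated at Pearson's r = 0.93 (exact permutation p = 0.000124) and Spearman's rho = 0.98 (p = 0.000397), and r was 0.84 without the 2 pools farthest from the median. This was computed for all 65 members, and H1f2 was singled out after its values were seen.

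H1f8, an oocyte linker histone at background on every array, was at 2.94 to 3.56.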
